A study of Mus musculus with 36 samples.

Results

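The infarcted left ventricle of the mouse was followed from the first week after a myocardial infarction (MI) to the eighth, and the messenger RNA of both stages was compared gene by gene. The comparison rests on the 6 mRNA libraries that the labels assign to MI at 1 week (1W, 3 libraries) and at 8 weeks (8W, 3 libraries), of 36 libraries in the series, 18 of which are mRNA libraries. The other mRNA libraries are 3 sham libraries of each stage and the MI and sham libraries of 1 day, and the other 18 libraries are small RNA. In both MI groups C57BL/6 males had the proximal left anterior descending coronary artery tied off, and in both sham groups the same operation was done without closing the artery. All animals were operated on when 8 weeks old, so that the 8W hearts are also older than the 1W hearts, in MI and sham alike. Each library was made from left ventricles that had been pooled, and the number of animals in a pool is not given in the sources used here, nor is it stated how much of the sampled ventricle was scar and how much was surviving muscle. Libraries of a group are called libraries 1, 2 and 3 after their labels.

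After an infarction, dead muscle is cleared by recruited phagocytes, resident fibroblasts divide and turn into matrix-producing myofibroblasts, and a collagen scar replaces the lost tissue because adult cardiomyocytes hardly divide. As the scar matures, its collagen is crosslinked, inflammatory cells leave, and fibroblasts give up the contractile and secretory state. The muscle that survives meanwhile carries the load of the whole ventricle, for which the re-expression of fetal sarcomere genes and of natriuretic peptides is a well known sign.

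The values are FPKM, fragments per kilobase of transcript scaled to the mapped fragments of a library, so that levels of different genes can be compared per length. Differences are given as log2 fold changes on the log2(FPKM + 1) scale, which understates the change of genes near 0, with a standard error (SE) and a Benjamini-Hochberg adjusted p from limma over 12858 genes. The spread behind each p and SE is a single value per gene. It is taken over all 18 mRNA libraries in 6 groups, not over the compared groups alone. It measures differences between pooled libraries and nothing beyond them. The defining ventricular light chain Myl2 ran from 411 to 1643 FPKM in the 1W MI libraries and from 3458 to 10266 FPKM in the 8W MI libraries, whereas its atrial counterpart Myl7 stayed between 0.0881 and 6.83 FPKM in the 6 MI libraries. In bulk tissue, fewer cells of a type and less RNA per cell cannot be told apart, and this holds for every result below.

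The 8W MI libraries differed from each other more than any other group. The median standard deviation of a tested gene was 0.267 on the log2 scale in the 8W MI group against 0.0860 in the 1W MI group, and 0.0641 to 0.110 over the groups other than 8W MI. Library 3 of the 8W MI group stood nearest to the 1W libraries: among the genes that fell it held the highest of the 3 values for 95.2%, and library 1 held the lowest for 91.5%. Library 3 also had signs of tissue other than myocardium and scar. Its 60.4 FPKM of Tnnc2 and 62.4 FPKM of Mylpf, fast skeletal muscle genes, compare with 0.638 to 3.36 FPKM of either in libraries 1 and 2, and its 79.3 FPKM of the mesothelial gene Upk3b with 4.38 and 8.02 FPKM. Adiponectin (Adipoq) was at 46.1 and 119 FPKM in libraries 2 and 3 and at 0.157 FPKM in library 1. List counts that reach 3 members and move by more than 1.5 times when 1 of the 3 libraries is left out are given with that count.

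Between 1W and 8W of MI, 2610 genes rose and 6299 fell at an adjusted p below 0.05, which is 20.3% and 49.0% of the genes tested. The median change of all tested genes was -0.26, so that list medians below are to be read against that value and not against 0. List counts below are likewise to be read against rises of 20.3% and falls of 49.0%. In sham hearts the same interval changed 54 genes upward and 55 downward, 0.420% and 0.428%. The sham counts depended on the estimate of the spread. They were 248 and 759 with only the sham libraries of both stages in the fit, and 362 and 1212 with groups weighted by their spread. The balance of rises and falls depended on the scaling: rises made up 29.3% of the called genes with FPKM as deposited, but 46.0% after quantile normalisation, 52.3% after division by median-ratio factors and 45.6% in values that the authors had normalised. Of the 2610 genes that rose, 2573 also rose under those 3 scalings and none turned into a fall, whereas of the 6299 that fell, 4008 fell under all of them and 3 rose in the median-ratio scaling. With only the 6 MI libraries in the fit, 1844 genes rose and 3630 fell. Of the rises 1589 and of the falls 3254 held under those 3 scalings, in that fit and with groups weighted by their spread.

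Of 42 lists of cell type and pathway genes, collagens, elastic fibre genes, activated fibroblast genes, cell cycle genes and genes of recruited macrophages had the lowest medians, and adipocyte, cardiomyocyte and mitochondrial genes the highest.

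**Figure D1:**
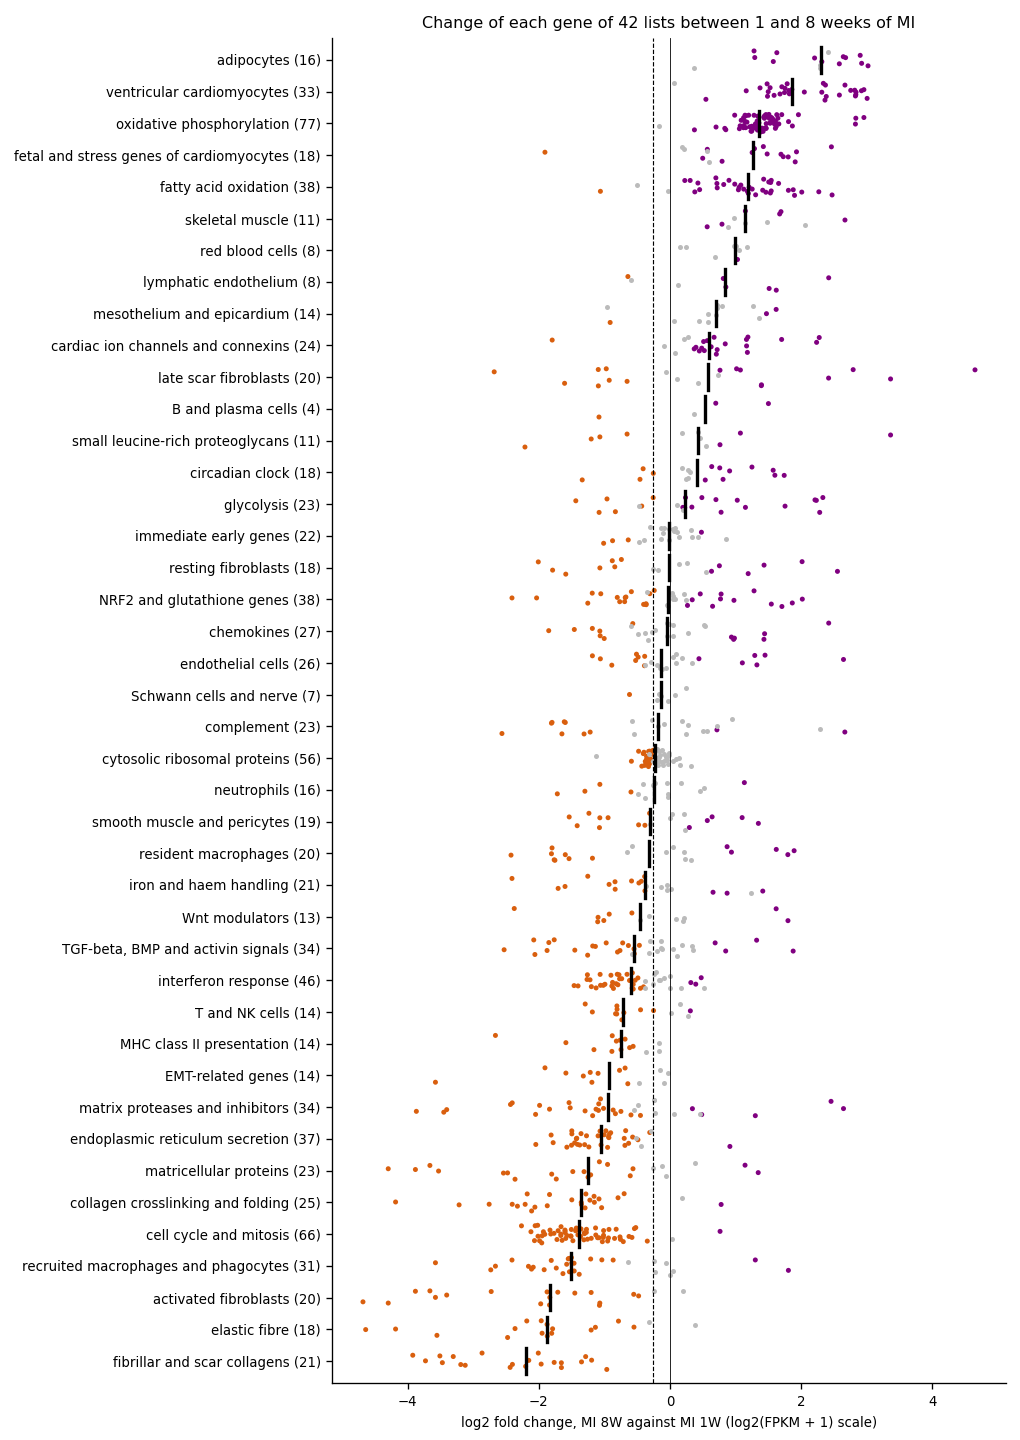
Log2 fold change of MI at 8W against MI at 1W (x axis, log2(FPKM + 1) scale) for the tested genes of 42 lists (rows, number of tested genes in brackets). Each dot is a gene, purple where it rose, orange where it fell and grey where it did not pass the test, the black bar is the list's median and the dashed line is the median of all tested genes, -0.26. Collagens lie at the bottom, with all 21 tested members to the left, and 32 of 33 cardiomyocyte genes near the top are purple.

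Collagen chains fell throughout. All 21 tested collagen chains fell, with a median of -2.20, beside 49.0% of all genes. Col1a1 and Col3a1, the fibrillar collagens that make up most of a scar, fell by 3.92 (SE 0.37, limma adjusted p = 7.2e-07) and fell by 3.30 (SE 0.33, limma adjusted p = 1.4e-06) on the log2 scale. Col1a1 was at 3755, 3845 and 2768 FPKM in the 1W MI libraries and at 112, 190.3 and 534 FPKM in the 8W MI libraries. The groups did not overlap, and the value of library 3 at 8W was still far below the lowest value at 1W. Against a sham level of 36.9 FPKM at 1W and 11.5 FPKM at 8W, Col1a1 nevertheless stood 4.17 higher on the log2 scale at 8W (SE 0.37, limma adjusted p = 1.2e-07). In sham Col1a1 changed by -1.58 (limma adjusted p = 0.058) and Col3a1, the 1 chain called there, by -1.60 (limma adjusted p = 0.037). Their changes in MI minus those in sham were -2.35 (limma adjusted p = 0.0023) and -1.71 (limma adjusted p = 0.0088). Of the excess over sham that Col1a1 had at 1W, 7.81% was left at 8W, with 2.92% in library 1 and 15.3% in library 3. Col11a1, a minor fibrillar chain that is hardly expressed in the sham ventricle, went from 81.5, 75.0 and 38.9 FPKM to 1.19, 3.68 and 9.54 FPKM and fell by 3.73 (SE 0.38, limma adjusted p = 1.5e-06). While scar genes fell, the mean log2(FPKM + 1) of the 33 cardiomyocyte genes went from 5.87, 6.56 and 7.36 at 1W to 9.10, 8.70 and 8.07 at 8W, and its part in the falls was not tested. Col8a1, a short-chain collagen, fell by 3.12 (SE 0.32, limma adjusted p = 1.5e-06), from 468 ± 74.4 to 60.0 ± 36.0 FPKM (SD, n = 3).

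Enzymes that fold and crosslink collagen fell with their substrate, 23 of 25 with a median of -1.35. Lox, the lysyl oxidase that starts collagen and elastin crosslinks, had 485, 424 and 357 FPKM at 1W and 10.1, 19.3 and 53.6 FPKM at 8W. It fell by 4.18 on the log2 scale (SE 0.37, limma adjusted p = 4.7e-07). Loxl2, a relative of Lox, fell from 140.2 ± 27.8 to 22.5 ± 13.7 FPKM (SD, n = 3), and P4ha3, a subunit of a collagen prolyl hydroxylase, from 45.5 ± 9.49 to 4.54 ± 3.28 FPKM. The single member of that list that rose was Pcolce2, an enhancer of procollagen processing, which went from 24.4, 24.9 and 28.2 FPKM to 26.0, 57.3 and 61.1 FPKM. The groups overlapped at library 1 of 8W, and the rise of 0.78 (SE 0.22, limma adjusted p = 0.0051) did not hold in a fit of the 6 MI libraries alone (limma adjusted p = 0.081).

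Among the elastic fibre genes, 16 of 18 fell with a median of -1.87. Elastin itself (Eln) had 1437, 971 and 1541 FPKM at 1W and 30.2, 41.0 and 105 FPKM at 8W, and fell by 4.64 (SE 0.31, limma adjusted p = 4.0e-08). Eln fell in sham hearts too, from 43.9 to 8.65 FPKM on average, and its change in MI minus that in sham was -2.42 (limma adjusted p = 0.00064). Fibrillin 1 (Fbn1), the microfibril backbone on which elastin is laid down, fell from 363 ± 39.4 to 37.1 ± 29.7 FPKM (SD, n = 3). Fbln1 and Ltbp4 were the members that did not pass the test, at 0.39 and -0.32 on the log2 scale.

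Matricellular proteins, which sit in the matrix and signal to cells without being structural, fell in 17 of 23 cases with a median of -1.25. Periostin (Postn, gene 50706, chr3:54359267-54391041 in mm10), the usual mark of an activated cardiac fibroblast, had 3488, 3466 and 2815 FPKM at 1W, nearly the level of Col1a1. At 8W it had 86.5, 177 and 289 FPKM, and fell by 4.30 (SE 0.27, limma adjusted p = 2.6e-08). Tenascin C (Tnc), a protein of provisional matrix, went from 78.8, 116 and 58.0 to 1.80, 4.53 and 10.2 FPKM, and thrombospondin 2 (Thbs2) from 338, 319.8 and 222 to 10.9, 23.5 and 53.2 FPKM. In each of these genes the highest 8W value, that of library 3, stayed below the lowest 1W value. Tnxb and Smoc1 rose instead. Tenascin X (Tnxb), which spaces collagen fibrils, went from 4.38, 3.01 and 6.31 to 7.61, 14.1 and 18.9 FPKM, a rise of 1.35 (SE 0.24, limma adjusted p = 0.00020).

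Matrix proteases and their inhibitors did not move as one. Of 34 tested, 22 fell and 5 rose. The membrane-bound collagenase Mmp14 fell by 3.45 (SE 0.30, limma adjusted p = 4.0e-07), from 245, 266 and 191 FPKM to 11.8, 16.4 and 42.4 FPKM, and Timp1, an inhibitor induced by injury, from 193 ± 36.7 to 56.4 ± 27.0 FPKM (SD, n = 3). Macrophage elastase (Mmp12) had 16.3, 15.8 and 26.0 FPKM at 1W and 54.3, 36.6 and 55.3 FPKM at 8W, against 0.0881 and 0.0911 FPKM in sham. It rose by 1.30 (SE 0.17, limma adjusted p = 1.2e-05) without any overlap. Stromelysin (Mmp3) rose as well, from 3.19, 3.44 and 4.18 to 15.2, 28.1 and 32.8 FPKM. Timp4, the inhibitor that healthy ventricle expresses, rose by 2.65 (SE 0.25, limma adjusted p = 8.2e-07), from 0.732 ± 0.515 to 9.91 ± 3.39 FPKM (SD, n = 3), and its log2 difference from the 31.5 FPKM of sham at 8W was -1.62 (SE 0.25, limma adjusted p = 3.0e-05).

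Markers of activated fibroblasts fell in 18 of 20 cases, with a median of -1.83, and none rose. Cthrc1, a secreted protein made by scar-forming fibroblasts, had 582, 545 and 428 FPKM at 1W and 7.64, 17.0 and 51.1 FPKM at 8W, and fell by 4.68 (SE 0.41, limma adjusted p = 3.8e-07). Cthrc1 changed by -1.99 in sham (limma adjusted p = 0.034), and its change in MI minus that in sham was -2.69 (limma adjusted p = 0.0019). Fibronectin (Fn1) fell from 2206, 2172 and 1472 to 68.9, 138 and 427 FPKM, and Wisp1, a secreted matricellular signal, from 61.1, 64.3 and 51.4 to 2.12, 2.89 and 7.65 FPKM. Smooth muscle actin (Acta2), the contractile mark of the myofibroblast that vessel walls also express, fell less, from 382, 475 and 262 to 161, 146 and 214 FPKM, a change of -1.07 (SE 0.19, limma adjusted p = 0.00014), and 41.9% of its 1W excess over sham was left. Meox1, a transcription factor of activated fibroblasts, moved from 34.5, 46.3 and 47.0 to 20.4, 32.2 and 35.0 FPKM. The groups overlapped at the lowest 1W library, and the change of -0.55 (SE 0.18, limma adjusted p = 0.014) was lost when the groups were weighted by their spread (limma adjusted p = 0.15).

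Further large falls were those of C1qtnf3, a secreted C1q-domain protein, of Adamts12, a secreted metalloprotease of the matrix protease list, and of H19, an imprinted long noncoding RNA of fetal tissues. C1qtnf3 had 100.1, 96.2 and 68.6 FPKM at 1W and 0.619, 1.91 and 7.08 FPKM at 8W, which is 27.6-fold lower on average. Adamts12 went from 30.4, 28.4 and 19.3 to 0.189, 0.661 and 2.07 FPKM. H19 went from 139.6, 91.4 and 76.9 to 2.51, 3.84 and 10.6 FPKM, a range that holds the sham mean of 3.94 FPKM at 8W. Of its 1W excess over sham, 1.79% was left, and its 8W difference from sham was 0.29 (SE 0.38, limma adjusted p = 0.48).

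**Figure D2:**
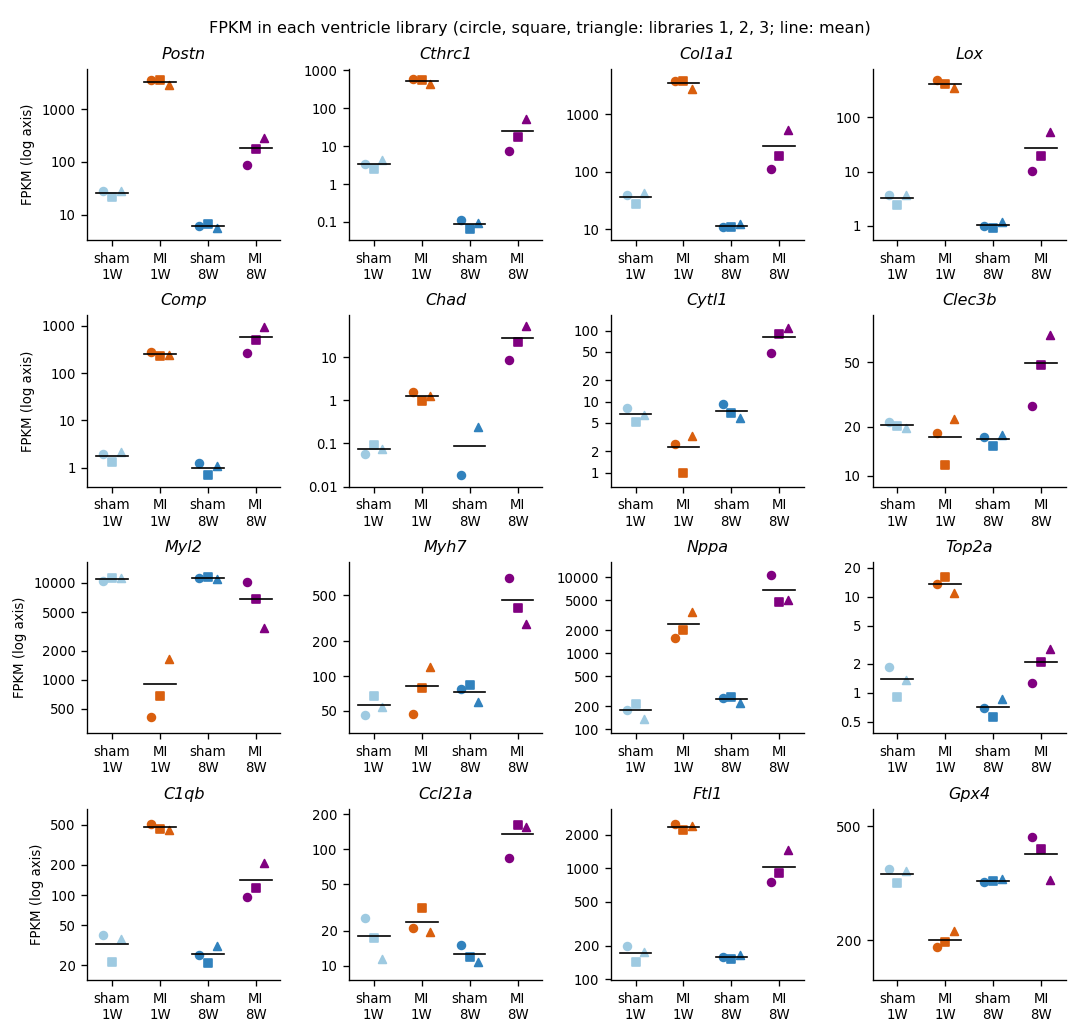
FPKM (y axes, log scale) of 16 genes in each sham and MI library of 1W and 8W, with libraries 1, 2 and 3 as circle, square and triangle and the group mean as a line. A library of sham 8W is at 0 for Chad and is not drawn. Postn, Cthrc1, Col1a1 and Lox drop from 1W to 8W of MI but stay above sham, Comp, Chad, Cytl1 and Clec3b rise, and Myl2 returns toward the sham level.

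Genes of the late scar were divided. The 20 tested genes of a list of cartilage and tendon type matrix genes known from late scar fibroblasts had a median of 0.59, with 9 that rose and 7 that fell (6 and 3 in a fit of the 6 MI libraries alone). The median was 1.07 without library 1 of 8W and 0.13 without library 3. Cytl1 (gene 231162, chr5:37735519-37739820), a secreted cytokine-like protein of cartilage, had 2.54, 0.993 and 3.28 FPKM at 1W of MI, less than in sham (6.58 FPKM, log2 difference -1.27, limma adjusted p = 0.00086). At 8W it had 48.5, 87.9 and 108 FPKM against 7.29 FPKM in sham, a rise of 4.65 over 1W (SE 0.30, limma adjusted p = 2.9e-08). Chondroadherin (Chad), a leucine-rich protein of cartilage matrix, went from 1.59, 0.947 and 1.27 to 8.52, 23.3 and 53.1 FPKM. Cilp2, a cartilage intermediate layer protein, went from 0.873 ± 0.0495 to 10.1 ± 5.81 FPKM (SD, n = 3). Both were above all 1W values in every 8W library. Clec3a, a cartilage lectin, was listed at 0 in the 3 MI libraries of 1W and had 2.57, 5.90 and 12.5 FPKM at 8W.

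Cartilage oligomeric matrix protein (Comp, gene 12845, chr8:70373548-70382066), which organises collagen fibrils, was already at 275, 226 and 240.3 FPKM at 1W of MI. At 8W it had 264, 493 and 951 FPKM, so that library 1 lay within the range of the 1W libraries, and the rise of 1.02 (SE 0.30, limma adjusted p = 0.0070) was not called with the 6 MI libraries alone (limma adjusted p = 0.093). Sham hearts held 1.83 and 1.02 FPKM. Comp thus kept its full 1W excess, 232% of it on average and 107% in library 1, while Postn kept 5.50%. Prelp, a proteoglycan that anchors basement membranes to collagen, behaved alike, with 110.4, 92.2 and 104 FPKM at 1W and 104, 244 and 393 FPKM at 8W (limma adjusted p = 0.0056, and 0.087 with the 6 MI libraries alone). Aggrecan (Acan), the cartilage proteoglycan, fell by 2.68, from 29.7, 23.0 and 16.8 to 1.01, 2.44 and 6.20 FPKM. The Wnt antagonist Sfrp2 fell by 0.93 (SE 0.35, limma adjusted p = 0.029), from 583, 542 and 668 to 144, 301 and 703 FPKM. Its groups overlapped, and the call was lost in all 3 other scalings.

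Small leucine-rich proteoglycans, which coat collagen fibrils, were split. Of 11 tested, 3 rose and 4 fell, the median was 0.43, and all 11 were above sham at both stages. Of all genes above sham at 1W, 89.0% were above it at 8W. Asporin (Aspn) fell from 491, 478 and 395 to 45.5, 119.7 and 166 FPKM (log2 change -2.21, SE 0.32, limma adjusted p = 2.8e-05). Decorin (Dcn) had 842, 755 and 865 FPKM at 1W and 649, 1453 and 1822 FPKM at 8W, a difference of 0.55 that did not pass the test (SE 0.26, limma adjusted p = 0.069), and fibromodulin (Fmod) 122 ± 10.4 and 189 ± 118 FPKM (SD, n = 3, limma adjusted p = 0.23). The split depended on single libraries, with 7 up, 3 down and a median of 0.70 without library 1 of 8W, and 2 up, 4 down and a median of -0.04 without library 3. With the 6 MI libraries alone 1 rose and 1 fell. Genes of resting fibroblasts were likewise split, 6 up and 7 down of 18 with a median of -0.02 (4 and 3 with the 6 MI libraries alone), and the median was 0.29 without library 1 and -0.26 without library 3. Gelsolin (Gsn), which severs actin filaments, rose from 221, 200.3 and 286 to 801, 1748 and 1849 FPKM, 2.55 on the log2 scale (SE 0.24, limma adjusted p = 7.2e-07). Tcf21, the transcription factor of cardiac fibroblasts, fell by 0.88 (SE 0.26, limma adjusted p = 0.0071), from 45.9, 38.6 and 52.8 to 12.7, 28.5 and 38.7 FPKM, with 2.40 FPKM in sham at 8W, a call that was lost with the 6 MI libraries alone (limma adjusted p = 0.093).

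Further large rises were those of Myoc, Retnla, Inmt, Fmo2, Gsta3 and Ces1d. Ces1d rose from 0.979 to 19.8 FPKM on average, but sham held 33.6 FPKM at 1W and 32.9 FPKM at 8W. Its log2 difference from sham at 8W was -0.94 (SE 0.36, limma adjusted p = 0.024). Myocilin (Myoc, gene 17926, chr1:162639150-162649694), a secreted glycoprotein, had 0.939, 0.647 and 1.97 FPKM at 1W and 23.2, 42.8 and 69.0 FPKM at 8W, while sham stayed at 1.06 and 1.29 FPKM. The rise was 4.31 (SE 0.27, limma adjusted p = 2.6e-08), and the difference of MI from sham at 1W was 0.04 (limma adjusted p = 0.89). Retnla, a secreted product of alternatively activated macrophages and of fat, went from 0.858, 0.242 and 0.518 to 8.19, 24.1 and 81.7 FPKM. Gsta3, a glutathione transferase, went from 0.352, 0.395 and 0.433 to 5.68, 12.4 and 19.5 FPKM and Fmo2, a flavin monooxygenase, from 4.96, 3.96 and 6.78 to 25.4, 54.6 and 74.1 FPKM. Each of these 8W libraries exceeded each 1W library. Fat genes moved in part with them: the 16 adipocyte genes had a mean log2(FPKM + 1) of 2.68, 5.57 and 6.60 in 8W libraries 1, 2 and 3, and their part in these rises was not tested. In library 1, where Adipoq, Cfd and Plin1 were at 0.157, 1.47 and 0.0195 FPKM, Myoc was at 23.2 FPKM and Gsta3 at 5.68 FPKM, both above every 1W library.

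A ratio of 2 genes within a library does not depend on a single factor that scales the whole library, but it does depend on scalings that act on genes by level, as quantile normalisation does. Of 10 ratios, 6 had no overlap between the 1W and 8W MI libraries, for which the exact two-sided permutation test gives its smallest possible p of 0.1 with 3 against 3 libraries (0.167 after adjustment over the 10). Comp to Postn was 0.0788, 0.0652 and 0.0854 at 1W and 3.06, 2.79 and 3.29 at 8W, a shift of 5.32 on the log2 scale, and the 3 libraries of 8W, which differ so much elsewhere, were close together here. In sham this ratio averaged 0.0698 at 1W, near its level in MI at 1W, and 0.169 at 8W, so that it was higher at 8W in sham too. Col3a1 to Col1a1 went from 1.19 ± 0.170 to 1.82 ± 0.0602 (SD, n = 3), beside 2.27 and 2.29 in sham. The order of both collagens rests on the scaling. Col1a1 and Col3a1 differed between the stages by -3.92 and -3.30 on the log2 scale in FPKM, by -4.27 and -4.23 after quantile normalisation and by -4.43 and -4.55 in the authors' normalized values. Timp1 to Timp2 fell from 0.781 ± 0.171 to 0.318 ± 0.0859, beside 0.137 and 0.0853 in sham. Col5a1 and Col8a1 rose against Col1a1, from 0.0901 to 0.117 ± 0.0200 and from 0.136 to 0.237 ± 0.0584. Both of these ratios were also higher at 8W than at 1W in sham, at 0.195 and 0.312 for Col5a1 and 0.205 and 0.290 for Col8a1.

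**Figure D3:**
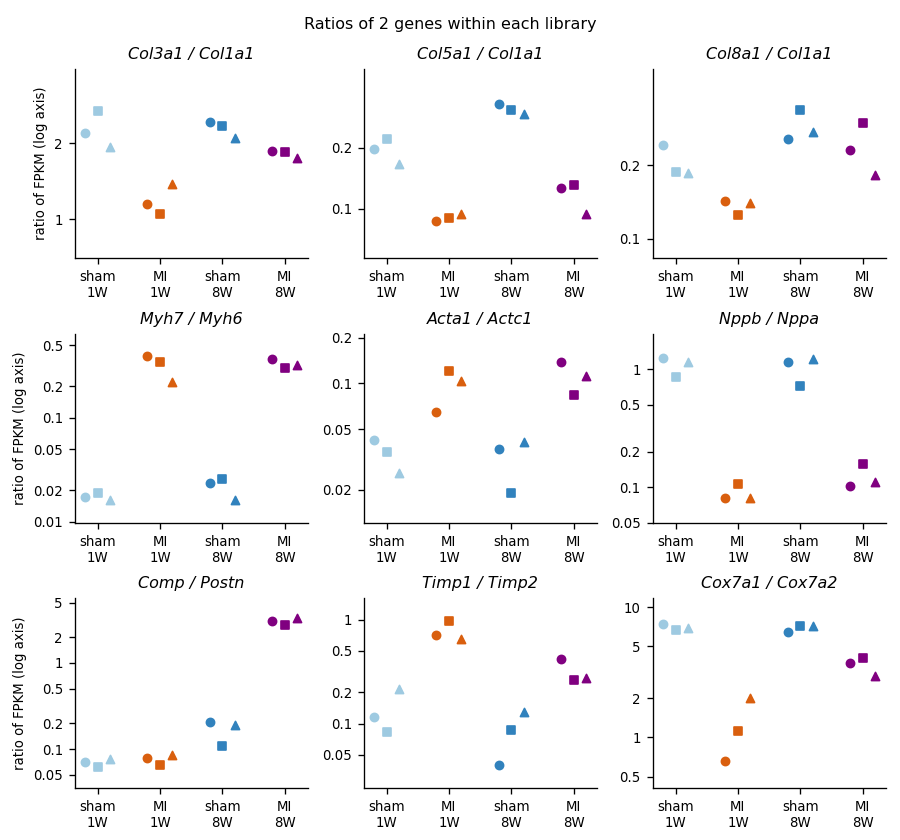
Ratio of the FPKM of 2 genes within each library (y axes, log scale) for 9 pairs, in sham and MI of 1W and 8W, with libraries 1, 2 and 3 as circle, square and triangle. Comp to Postn lies near 0.08 at 1W of MI and near 3 at 8W, whereas Myh7 to Myh6 lies between 0.219 and 0.393 in all 6 MI libraries and near 0.02 in sham.

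Cell cycle genes fell together. Of 66 tested genes of the cell cycle and mitosis 64 fell, with a median of -1.39, and 1 rose. Mki67, the marker of cycling cells, had 11.2, 12.7 and 8.91 FPKM at 1W and 1.10, 1.87 and 2.82 FPKM at 8W, and fell by 2.06 (SE 0.17, limma adjusted p = 2.7e-07). Top2a, the topoisomerase that untangles chromosomes, went from 13.7, 16.1 and 11.0 to 1.27, 2.09 and 2.88 FPKM, and Ccna2 (cyclin A2) from 10.4, 11.8 and 8.22 to 0.908, 1.52 and 2.39 FPKM. The 8W values of these genes were all below the 1W values but above the sham mean at 8W, 0.672 FPKM for Mki67 and 0.708 FPKM for Top2a. The median cell cycle gene kept 16.9% of its 1W excess over sham, against 53.4% for all 9365 genes above sham at 1W. The member that rose was Ccnd1 (cyclin D1), which differentiated cells also express, from 12.2, 14.2 and 16.6 to 20.1, 27.6 and 27.6 FPKM (limma adjusted p = 0.00096, and 0.076 with groups weighted by their spread).

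Promoters of cell cycle genes often hold a cell cycle homology region, TTTGAA, through which they are silenced in resting cells. In windows of 250 bases before the gene start, searched on both strands, the letters were found in 16 of 56 cell cycle genes with a window (28.6%) and in 10.7% of 10240 windows. The CCAAT box, which can stand beside it, was in 42 of the 56 and in 36.3% of all windows. A match is a description of the letters only. Of all 1096 tested genes with the TTTGAA letters, 500 fell and 249 rose, with a median of -0.22. Of the 10240 genes with a window, 5030 fell and 2092 rose, with a median of -0.26. The last 150 bases before the start are given for 5 of the genes that fell, as examples of where the letters lie, with TTTGAA or its reverse complement TTCAAA in capitals (RefSeq, GRCm38.p6, in the direction of the gene).
Mki67 (chr7:135716380-135716529, minus strand): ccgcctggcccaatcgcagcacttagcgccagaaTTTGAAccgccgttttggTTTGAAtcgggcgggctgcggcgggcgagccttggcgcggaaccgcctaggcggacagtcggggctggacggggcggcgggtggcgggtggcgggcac
Cdk1 (chr10:69352913-69353062, minus strand): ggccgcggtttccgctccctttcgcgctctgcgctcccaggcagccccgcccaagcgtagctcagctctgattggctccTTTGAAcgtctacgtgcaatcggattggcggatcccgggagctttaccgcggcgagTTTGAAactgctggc
Cdc20 (chr4:118437344-118437493, minus strand): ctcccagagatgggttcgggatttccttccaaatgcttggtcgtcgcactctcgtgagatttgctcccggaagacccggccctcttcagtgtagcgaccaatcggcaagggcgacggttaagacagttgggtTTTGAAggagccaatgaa
Ube2c (chr2:164769779-164769928, plus strand): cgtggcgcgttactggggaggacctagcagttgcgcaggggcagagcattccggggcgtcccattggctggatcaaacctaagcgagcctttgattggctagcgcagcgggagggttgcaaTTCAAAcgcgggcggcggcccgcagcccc
Kif11 (chr19:37376232-37376381, plus strand): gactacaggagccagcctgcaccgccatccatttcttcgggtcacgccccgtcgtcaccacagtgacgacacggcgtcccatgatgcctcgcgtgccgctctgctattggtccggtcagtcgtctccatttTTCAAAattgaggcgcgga
The match nearest the start is 15, 18, 19 and 29 bases before it in Cdk1, Cdc20, Kif11 and Ube2c and 98 bases before it in Mki67. All 5 genes were more than 5-fold lower at 8W, from 5.10-fold in Ube2c to 6.25-fold in Cdk1. Ube2c, a ubiquitin-conjugating enzyme of mitotic exit, had 2.69, 2.79 and 2.82 FPKM in the 8W libraries and so hardly differed between them. Cdk1, the kinase that starts mitosis, had 0.647, 1.32 and 1.93 FPKM.

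Genes of protein secretion fell as well. Of 37 genes of the endoplasmic reticulum that fold and export proteins, 33 fell with a median of -1.05. Kdelr3, a receptor that returns chaperones to the endoplasmic reticulum, went from 69.7, 71.8 and 59.9 to 10.9, 15.2 and 22.1 FPKM (log2 change -2.05, SE 0.19, limma adjusted p = 6.3e-07), and the calcium-binding protein Rcn1 from 77.7 ± 9.64 to 22.8 ± 10.5 FPKM (SD, n = 3). Of the 36 members above sham at 1W, 25 were still above it at 8W, beside 89.0% of all such genes. A further 9 no longer differed by the test and 2 were below. The chaperone Hspa5 (BiP) had 238, 191 and 176 FPKM at 1W and 102, 118 and 153 FPKM at 8W, without overlap. It fell by 0.70 (SE 0.16, limma adjusted p = 0.0015, and 0.081 with groups weighted by their spread). Since sham hearts held 161 FPKM at 1W and 264 FPKM at 8W, the log2 difference of Hspa5 from sham at 8W was -1.10 (SE 0.16, limma adjusted p = 2.0e-05).

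A stress response element, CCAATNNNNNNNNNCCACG, is known from promoters of endoplasmic reticulum chaperones. It was found in 7 of 29 genes of this list with a window (24.1%) and in 15 of 10240 windows (0.146%). Of these 15 genes 10 fell and 1 rose, with a median of -0.57, beside 5030 and 2092 of the 10240 genes with a window. The 15 include the 7 members of this list, so that the count is not independent of the falls of the list. The last 150 bases before the start are shown for 5 of the list members, with the CCAAT and CCACG ends in capitals (on the opposite strand CGTGG and ATTGG) to show where the element lies in each window.
Hspa5 (chr2:34771940-34772089, plus strand): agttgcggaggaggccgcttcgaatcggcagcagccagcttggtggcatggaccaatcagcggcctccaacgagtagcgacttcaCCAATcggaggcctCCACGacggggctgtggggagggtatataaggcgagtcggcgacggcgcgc
Pdia6 (chr12:17266439-17266588, plus strand): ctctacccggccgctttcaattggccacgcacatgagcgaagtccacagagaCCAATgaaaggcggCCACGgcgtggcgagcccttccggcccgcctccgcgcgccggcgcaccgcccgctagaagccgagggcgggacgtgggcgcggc
Creld2 (chr15:88819496-88819645, plus strand): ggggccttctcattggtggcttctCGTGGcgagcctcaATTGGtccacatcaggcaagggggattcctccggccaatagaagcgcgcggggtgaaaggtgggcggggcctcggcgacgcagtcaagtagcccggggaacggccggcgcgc
Canx (chr11:50325674-50325823, minus strand): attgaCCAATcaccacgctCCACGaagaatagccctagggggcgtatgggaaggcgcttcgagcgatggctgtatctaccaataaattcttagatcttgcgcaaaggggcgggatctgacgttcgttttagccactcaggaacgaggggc
Dnajc3 (chr14:118937782-118937931, plus strand): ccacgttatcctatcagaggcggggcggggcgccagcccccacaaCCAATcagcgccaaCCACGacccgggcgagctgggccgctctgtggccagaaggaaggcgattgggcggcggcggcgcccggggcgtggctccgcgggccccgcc
Pdia6, a disulfide isomerase, fell by 1.50 (SE 0.19, limma adjusted p = 9.4e-06), from 137, 135 and 106 to 30.2, 41.8 and 65.5 FPKM. Creld2, a secreted chaperone, fell by 0.63, a call that was lost with weighted groups (limma adjusted p = 0.12). The lectin chaperone Canx fell by 0.57 (SE 0.11, limma adjusted p = 0.00041). Dnajc3, a cochaperone of Hspa5, had 31.7, 27.7 and 26.1 FPKM at 1W and 11.5, 21.1 and 30.8 FPKM at 8W, so that the groups overlapped at library 3 and the difference of -0.51 did not pass the test (SE 0.23, limma adjusted p = 0.057).

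Cardiomyocyte genes rose. Of 33 tested genes of ventricular muscle 32 rose, with a median of 1.86, beside 20.3% of all genes, and none fell. Myl2 (gene 17906, chr5:122092724-122113473), the ventricular regulatory light chain, had 411, 684 and 1643 FPKM at 1W and 10266, 6769 and 3458 FPKM at 8W, a rise of 3.01 (SE 0.40, limma adjusted p = 1.5e-05). No 8W library overlapped the 1W libraries. Against 11076 and 11315 FPKM in sham, the 8W difference was -0.86 and did not pass the test (SE 0.40, limma adjusted p = 0.059). Troponin I (Tnni3) went from 119.7, 209 and 455 to 2578, 1747 and 933 FPKM, and the calcium pump Atp2a2 from 155, 232 and 399 to 1049, 899.9 and 577 FPKM. Unlike the matrix genes, muscle genes were highest in library 1 of 8W and lowest in library 3, and among the 1W libraries highest in library 3.

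All 33 muscle genes were below sham at 1W, and at 8W 20 still were while 13 no longer differed by the test. The median muscle gene had 44.1% of its 1W deficit left. Both values were near those of all 2124 genes below sham at 1W, of which 58.6% were still below it at 8W. The median deficit left over those genes was 42.1%. These differences from sham rest on FPKM as deposited. At 8W their median was -0.69 on the log2 scale over the muscle genes, beside 0.52 over all tested genes. The 8W difference from sham was -1.65 for Atp2a2 (SE 0.26, limma adjusted p = 4.1e-05) and, for the muscle ribosomal protein Rpl3l, -1.67 (SE 0.31, limma adjusted p = 0.00018), although Rpl3l had risen from 2.87 ± 2.48 to 31.7 ± 11.5 FPKM (SD, n = 3). Tcap, the titin cap of the Z disc, was at 1198, 708 and 465 FPKM against 543 FPKM in sham.

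**Figure D4:**
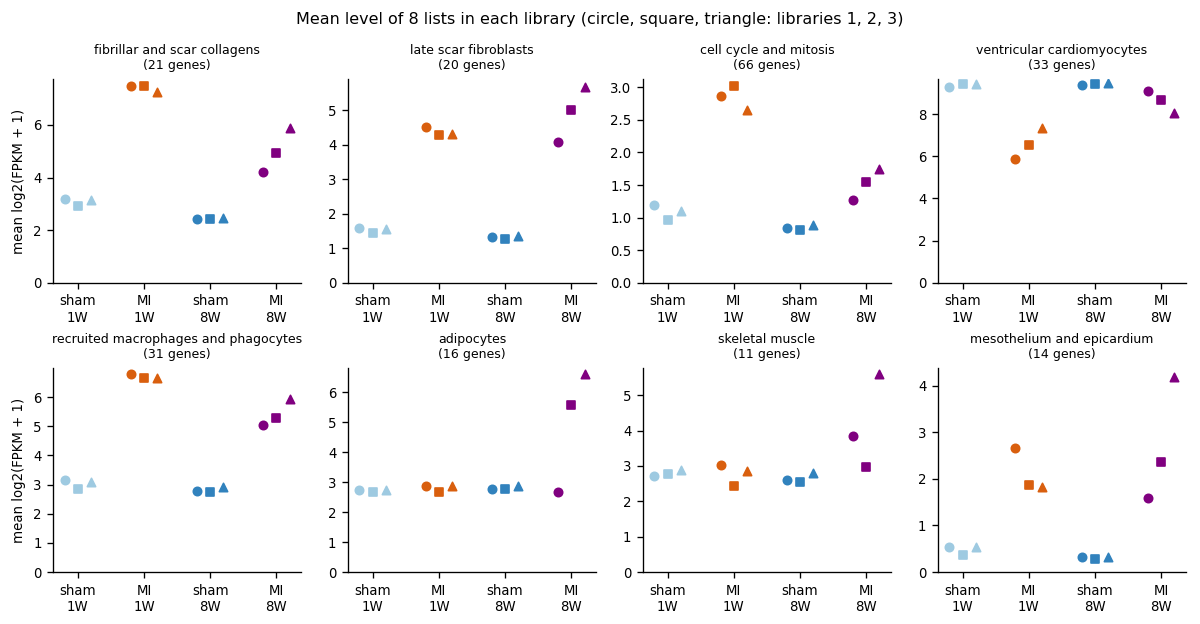
Mean log2(FPKM + 1) over the tested genes of 8 lists (y axes) in each sham and MI library of 1W and 8W, with libraries 1, 2 and 3 as circle, square and triangle. Collagen, cell cycle and macrophage genes lie lower at 8W than at 1W of MI and cardiomyocyte genes higher, while adipocyte genes are high in 8W libraries 2 and 3 only and skeletal muscle and mesothelial genes in 8W library 3.

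Fetal and stress genes of cardiomyocytes rose with the muscle genes. Of 18 tested, 13 rose and 1 fell, with a median of 1.27, and 8 rose when groups were weighted by their spread. Atrial natriuretic peptide (Nppa, gene 230899, chr4:148000722-148002074) had 1593, 2053 and 3545 FPKM at 1W and 10668, 4767 and 4969 FPKM at 8W, against 177 and 248 FPKM in sham, and rose by 1.48 (SE 0.31, limma adjusted p = 0.00067). The difference between its change in MI and in sham was 0.97 and did not pass the test (limma adjusted p = 0.080). Brain natriuretic peptide (Nppb) had 130.0, 219.8 and 289 FPKM at 1W, in the range of the 187 FPKM of sham, and 1103, 753 and 555 FPKM at 8W. Slow myosin (Myh7) went from 47.2, 79.2 and 121 to 709, 386 and 285 FPKM, a rise of 2.46 (SE 0.31, limma adjusted p = 8.9e-06). The member that fell was Actn1, the nonmuscle actinin.

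The rise of Myh7 was set against that of its adult counterpart. The ratio of Myh7 to Myh6 was 0.393, 0.342 and 0.219 at 1W and 0.364, 0.302 and 0.322 at 8W (exact permutation p = 0.9), against 0.0175 and 0.0220 in sham. Skeletal to cardiac actin (Acta1 to Actc1) was 0.0965 ± 0.0285 and 0.111 ± 0.0266 (SD, n = 3, exact permutation p = 0.6), against 0.0344 and 0.0325 in sham. Nppb to Nppa was 0.0901 ± 0.0148 and 0.124 ± 0.0294 (exact permutation p = 0.2), against 1.08 and 1.02 in sham. The 6 MI libraries lay outside the range of sham in each of these 3 ratios, and a shift between the stages was not detectable with 3 against 3 libraries. Tnni1 to Tnni3 had an exact permutation p of 0.2, with Tnni1 under the filter on low values.

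Energy metabolism genes of muscle rose. Fatty acid oxidation genes rose in 35 of 38 cases with a median of 1.19, and oxidative phosphorylation genes in 76 of 77 cases with a median of 1.36 and no fall. Cpt1b, the muscle carnitine palmitoyltransferase that admits fatty acids to mitochondria, rose from 6.81, 13.6 and 23.9 to 96.2, 71.0 and 44.4 FPKM (log2 change 2.27, SE 0.31, limma adjusted p = 1.7e-05), and the fatty acid carrier Fabp3 from 151, 265 and 567 to 2518, 1692 and 918 FPKM. Cpt1a, the form that nonmuscle cells use, was the single member that fell, from 36.1, 33.9 and 34.0 to 10.6, 16.1 and 24.2 FPKM. Most of these genes stayed below sham at 8W, 33 of 34 for fatty acid oxidation and 71 of 75 for oxidative phosphorylation, with a median of 58.0% and 45.6% of the 1W deficit left. Of all genes below sham at 1W, 58.6% stayed below it, with a median of 42.1% of the deficit left. Cox7a1, the muscle form of a cytochrome oxidase subunit, was 1.26 ± 0.691 times the general form Cox7a2 at 1W and 3.57 ± 0.564 times at 8W (SD, n = 3), against 7.03 and 6.90 times in sham. In glycolysis, 14 of 23 genes rose and 6 fell.

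Channels and connexins of the cardiomyocyte rose in 19 of 24 cases with a median of 0.60. Kcnip2, the subunit of the transient outward current whose loss prolongs the action potential, went from 1.64, 2.59 and 6.29 to 27.1, 20.6 and 11.8 FPKM with a log2 difference from sham of -1.59 at 8W (SE 0.30, limma adjusted p = 0.00016). Kcnj11, the pore of the ATP-sensitive potassium channel, went from 3.35 ± 2.29 to 18.5 ± 6.75 FPKM (SD, n = 3). Gja5, a connexin of the conduction system and of arterial endothelium, fell instead, from 23.0, 22.5 and 14.7 to 3.96, 6.49 and 4.71 FPKM (log2 change -1.80, SE 0.20, limma adjusted p = 4.1e-06). The count of 19 dropped to 11 when each group was weighted by its own spread.

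Genes of recruited macrophages and phagocytes fell in 23 of 31 cases with a median of -1.50. Cathepsin S (Ctss), a lysosomal protease, had 807, 637 and 623 FPKM at 1W and 81.2, 87.6 and 173 FPKM at 8W, and fell by 2.66 (SE 0.26, limma adjusted p = 9.9e-07). Arginase 1 (Arg1), a mark of reparative macrophages, went from 11.7, 15.4 and 7.82 to 0.482, 0.443 and 1.94 FPKM, and haem oxygenase (Hmox1) from 76.9, 96.5 and 73.8 to 9.18, 11.6 and 28.5 FPKM. No 8W library reached a 1W library in these genes. Of the 30 list members above sham at 1W, 29 were above it at 8W too, with a median of 33.6% of the excess left. Of all genes above sham at 1W, 89.0% were above it at 8W too, a share that was 72.5% with median-ratio factors. Gpnmb, a glycoprotein of lipid-laden macrophages, had 65.3, 37.3 and 53.0 FPKM at 8W against 0.177 FPKM in sham, and osteopontin (Spp1) 116, 145 and 371 FPKM against 0.252 FPKM. Lpl, a lipase that cardiomyocytes also express, and Mmp12 were the members that rose.

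Resident macrophage genes split, with 5 that rose (25%) and 8 that fell (40%) of 20 and a median of -0.32. The shares of all tested genes were 20.3% and 49.0%. Without library 1 of 8W, 7 rose and 8 fell with a median of 0.13, and without library 3, 3 rose and 11 fell with a median of -0.75. The general macrophage gene Emr1 (F4/80) fell from 87.9, 79.1 and 80.2 to 7.96, 14.8 and 25.5 FPKM, and C1qb, a complement component that macrophages secrete, from 513, 454 and 441 to 94.9, 118 and 209.7 FPKM. Lyve1, a hyaluronan receptor of resident macrophages and of lymphatic vessels, rose by 1.62 (SE 0.39, limma adjusted p = 0.0019), from 5.36, 5.41 and 4.23 to 5.99, 25.8 and 32.1 FPKM. Library 1 was near the 1W values, and the rise was 1.35 without library 2 (limma adjusted p = 0.013) and 1.20 without library 3 (limma adjusted p = 0.0077). Cbr2 rose from 7.98, 7.76 and 7.52 to 13.5, 56.8 and 39.9 FPKM, again with library 1 nearest to 1W. Sham held 13.8 FPKM of Cbr2 at 1W and 10.7 FPKM at 8W. The rise of Cbr2 was 1.89 on the log2 scale, 1.48 without library 2 and 1.73 without library 3.

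Lymphatic endothelial genes rose in 5 of 8 cases with a median of 0.83, but not evenly over the libraries. Their mean log2(FPKM + 1) was 2.74 in library 1 of 8W, inside the 2.65 to 2.91 of 1W, and 3.86 and 3.93 in libraries 2 and 3, in which adipocyte genes had means of 5.57 and 6.60. The part of that tissue in the rise was not tested. Without library 2 or without library 3, 5 genes still rose, with medians of 0.63 and 0.77. The lymphatic chemokine Ccl21a had 20.9, 31.4 and 19.5 FPKM at 1W and 84.9, 163 and 157 FPKM at 8W, a rise of 2.42 (SE 0.27, limma adjusted p = 3.0e-06), while sham held 18.1 and 12.5 FPKM. Near-identical copies of this gene exist in the mouse, so that its FPKM may include their fragments. Mmrn1, a lymphatic multimerin, rose from 3.47 ± 0.717 to 13.9 ± 8.44 FPKM (SD, n = 3), and Prox1, the transcription factor that specifies lymphatic vessels and that cardiomyocytes express as well, from 1.38, 1.95 and 2.24 to 3.38, 5.30 and 3.85 FPKM. Ccl19, which shares its receptor with Ccl21a, rose from 6.44, 5.50 and 5.55 to 11.9, 11.2 and 14.2 FPKM (log2 change 0.97, SE 0.09, limma adjusted p = 4.3e-07).

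Other chemokines were divided. Of 27 tested, 6 rose and 7 fell, or 4 and 10 without library 3 of 8W, and the median member above sham at 1W kept 94.2% of its excess. Cxcl16, a macrophage chemokine, fell from 66.4, 59.3 and 58.2 to 11.6, 15.1 and 24.4 FPKM and Ccl5 from 19.3, 15.4 and 16.0 to 5.96, 6.07 and 8.81 FPKM, the latter lost with weighted groups (limma adjusted p = 0.14). Ccl8 had 48.5, 46.1 and 35.7 FPKM at 1W and 24.9, 40.5 and 76.5 FPKM at 8W against 1.43 FPKM in sham, with a difference between the stages of -0.01 (SE 0.35, limma adjusted p = 0.97). The B cell attractant Cxcl13 had 1.88, 2.68 and 37.3 FPKM at 8W, so that its rise (limma adjusted p = 0.049, and 0.14 without library 3) rests on that library.

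MHC class II genes fell in 11 of 14 cases with a median of -0.75, and all 14 stayed above sham at 8W, beside 89.0% of all genes above sham at 1W. The count was 7 in a fit of the 6 MI libraries alone. H2-Aa went from 287, 240.2 and 233 to 99.6, 155 and 188 FPKM against 28.6 FPKM in sham (log2 change -0.82, SE 0.20, limma adjusted p = 0.0024, and 0.069 with weighted groups). Interferon response genes fell in 31 of 46 cases with a median of -0.60, and rose in 3, or 5 without library 1 of 8W. Isg15, a ubiquitin-like interferon product, went from 49.1, 45.0 and 31.7 to 10.9, 14.2 and 18.9 FPKM, and Irf7, the factor that amplifies the response, from 32.9, 30.6 and 28.5 to 11.2, 10.5 and 15.4 FPKM. Of 23 complement genes, 8 fell (34.8%) and 2 rose, with a median of -0.18. Without library 1 of 8W, 8 fell and 8 rose with a median of 0.18, and without library 3, 13 fell and 2 rose with a median of -0.55. The receptor C3ar1 fell from 45.3 ± 4.18 to 7.44 ± 4.23 FPKM (SD, n = 3), whereas the terminal component C7 rose from 2.64, 1.90 and 3.20 to 7.89, 25.7 and 46.8 FPKM (log2 change 2.67, SE 0.39, limma adjusted p = 3.6e-05). Complement C3 had 172, 164 and 156 FPKM at 1W and 105, 196 and 693 FPKM at 8W and did not pass the test (limma adjusted p = 0.28), the 8W libraries lying on both sides of the 1W range.

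Lymphocyte genes were mostly under the filter. Of 34 T and NK cell genes 14 were tested, of which 10 fell and 1 rose, and of 25 B and plasma cell genes 4 were tested. The joining chain Igj rose from 4.30, 2.37 and 2.60 to 4.04, 9.78 and 25.8 FPKM (log2 change 1.50, SE 0.45, limma adjusted p = 0.0082), with library 1 inside the 1W range, and was not called with the 6 MI libraries alone (limma adjusted p = 0.066). Without library 3 of 8W the difference of Igj was 0.88 (limma adjusted p = 0.037). Of 16 neutrophil genes 4 fell and 1 rose, or 8 and 1 without library 3 of 8W and 3 and 2 without library 2. Csf3r, the receptor for the granulocyte growth factor, fell from 9.35, 8.77 and 8.41 to 1.60, 1.24 and 3.60 FPKM.

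Vessel genes changed in both directions. Of 26 endothelial genes 6 rose (23.1%) and 8 fell (30.8%, or 3 genes with the 6 MI libraries alone). Of 19 smooth muscle and pericyte genes 5 rose (26.3%) and 9 fell (47.4%), beside 20.3% and 49.0% of all tested genes. The endothelial counts were 9 up and 4 down without library 1 of 8W, and 6 smooth muscle and pericyte genes fell instead of 9 without library 2. The water channel Aqp1 rose from 34.9, 33.7 and 41.6 to 64.8, 119 and 105 FPKM, and the endothelial adhesion molecule Mcam fell from 83.5, 91.1 and 67.7 to 26.7, 35.0 and 44.9 FPKM. Sham held 105 and 129 FPKM of Aqp1 at 1W and 8W, and its log2 difference from sham at 8W was -0.46 (limma adjusted p = 0.026). Smooth muscle myosin (Myh11) had 13.5, 14.9 and 14.6 FPKM at 1W and 36.5, 35.6 and 42.1 FPKM at 8W. The 8W libraries were close together, and the rise was 1.35 (SE 0.11, limma adjusted p = 1.6e-07), to above the 8.34 FPKM of sham. The pericyte and fibroblast receptor Pdgfrb fell from 81.3 ± 3.54 to 31.4 ± 12.5 FPKM (SD, n = 3).

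Of 34 signalling genes of the TGF-beta family 18 fell (52.9%, near the 49.0% of all tested genes) and 4 rose, with a median of -0.55 that was -0.25 without library 1 of 8W. In a fit of the 6 MI libraries 13 fell and 2 rose. Inhba, which encodes the activin A chain, went from 12.5, 17.2 and 8.08 to 0.804, 2.36 and 3.89 FPKM (log2 change -2.08, SE 0.28, limma adjusted p = 1.5e-05), and the ligand Tgfb3 from 139, 126 and 121 to 23.7, 37.1 and 57.7 FPKM. Bmp4 had 9.14, 7.43 and 9.56 FPKM at 1W and 7.29, 12.6 and 15.4 FPKM at 8W with no call (limma adjusted p = 0.10). Of 13 Wnt modulators 6 fell (46.2%) and 2 rose, or 5 and 5 without library 1. The antagonist Sfrp1 fell from 284, 268 and 211 to 21.9, 51.0 and 97.5 FPKM, and Sfrp4 rose from 1.17, 0.945 and 1.80 to 1.25, 8.95 and 21.3 FPKM, with library 1 inside the range of 1W and no call in a fit of the 6 MI libraries (limma adjusted p = 0.089). The rise of Sfrp4 was 1.80 on the log2 scale, 1.63 without library 2 and 1.05 without library 3.

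Iron and glutathione genes were followed because the study asks about ferroptosis, a cell death driven by iron-dependent lipid peroxidation. Glutathione peroxidase 4 (Gpx4, gene 625249, chr10:80047166-80056439), the enzyme that reduces lipid peroxides, had 189.7, 197 and 216 FPKM at 1W of MI and 459, 415 and 323 FPKM at 8W. The rise of 0.98 (SE 0.11, limma adjusted p = 3.6e-06) had no overlap, and it differed from the sham change by 1.05 (limma adjusted p = 0.00017). Sham held 339.6 FPKM at 1W and 322 FPKM at 8W, so that the log2 difference of Gpx4 from sham was -0.76 at 1W (limma adjusted p = 7.0e-06) and 0.29 at 8W (limma adjusted p = 0.022). Over all tested genes the median difference of MI from sham was 0.79 at 1W and 0.52 at 8W. Gpx4 thus lay below that median at both stages. Its relatives moved otherwise. Gpx7 fell from 53.0, 48.0 and 41.9 to 8.16, 10.1 and 15.3 FPKM, Gpx1 from 231 ± 14.8 to 148 ± 47.9 FPKM (SD, n = 3, limma adjusted p = 0.0036, and 0.053 with the 6 MI libraries alone), and Gpx3 did not pass the test, with 427, 481 and 447 FPKM at 1W and 364, 473 and 633 FPKM at 8W. Of 38 NRF2 and glutathione genes 12 rose and 17 fell (9 and 7 with the 6 MI libraries alone, and 13 and 11 without library 1 of 8W). Gstm1 rose by 2.02 (SE 0.13, limma adjusted p = 2.9e-08), from 29.1, 31.5 and 42.4 to 117, 147 and 161 FPKM. Nfe2l2, which encodes NRF2, did not pass the test at -0.34.

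Of 21 iron handling genes 12 fell (57.1%, beside 49.0% of all tested genes) and 3 rose (14.3%, beside 20.3%), or 7 and 1 with the 6 MI libraries alone and 9 and 5 without library 1 of 8W. Ferritin light chain (Ftl1) fell from 2489.5, 2224 and 2391 to 745, 904 and 1448 FPKM (log2 change -1.25, SE 0.21, limma adjusted p = 0.00011), with 158 FPKM in sham, while its partner Fth1 was at -0.04. The iron exporter Slc40a1 fell from 12.4, 13.1 and 18.2 to 2.45, 4.14 and 4.88 FPKM against 5.40 FPKM in sham. The transferrin receptor Tfrc, which brings iron into cells, rose from 2.24, 3.45 and 5.22 to 11.5, 11.5 and 9.90 FPKM against 19.4 FPKM in sham. Genes often used for epithelial to mesenchymal transition fell in 10 of 14 cases with a median of -0.93. Snai1 went from 20.9, 19.3 and 15.7 to 3.22, 4.94 and 9.94 FPKM and Vim from 1333, 1286 and 1130.0 to 480.4, 738 and 1101 FPKM, the latter lost with the 6 MI libraries alone (limma adjusted p = 0.086), while N-cadherin (Cdh2) was at 43.8 ± 3.50 and 42.9 ± 5.05 FPKM (SD, n = 3).

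Clock genes moved apart in sham and MI. Of 18 genes 9 rose and 4 fell at 8W of MI, or 14 and 1 in each of the 3 other scalings, and 13 and 2 without library 1 of 8W. Dbp, an output factor of the clock, had 34.1, 29.9 and 55.6 FPKM at 1W and 84.3, 88.5 and 107 FPKM at 8W (limma adjusted p = 0.00039, and 0.067 with weighted groups), while sham went from 20.3 to 4.66 FPKM, and the difference of both changes was 3.13 (limma adjusted p = 2.3e-05). Arntl (BMAL1), whose daily peak is opposite to that of Dbp, fell from 4.79, 5.13 and 2.87 to 0.755, 0.858 and 1.61 FPKM, while sham went from 3.26 to 6.29 FPKM. The hour at which hearts were taken is not given in the sources used here, so that hour and operation cannot be told apart. Immediate early genes, which respond to handling, rose in 1 and fell in 3 of 22 cases, or 3 and 3 without library 1 of 8W. Of 56 ribosomal protein genes 25 fell (44.6%, beside 49.0% of all tested genes), and their median of -0.23 was close to that of all genes. The count was 1 in the fit of the 6 MI libraries alone, 2 with weighted groups and 8 without library 1 of 8W, and with median-ratio factors 14 rose and 1 fell.

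Fat and skeletal muscle genes depended on the library. Of 16 adipocyte genes 12 rose, but the count was 7 without library 2 and 7 without library 3 of 8W, and 6 with only the 6 MI libraries in the fit. The adipokine Retn had 0.118, 23.0 and 81.1 FPKM and the desaturase Scd1 3.86, 188 and 253 FPKM in libraries 1, 2 and 3 of 8W, against 0.450 to 1.09 and 7.14 to 7.42 FPKM at 1W. Dgat2, an enzyme of triglyceride synthesis that cardiomyocytes also use, was even across libraries instead, with 48.9, 59.9 and 57.4 FPKM at 8W and 4.62, 6.65 and 14.7 FPKM at 1W. Of 11 skeletal muscle genes 6 rose, 4 did without library 3 and 11 did without library 2. The mean log2(FPKM + 1) of the 14 mesothelial and epicardial genes was 1.59, 2.36 and 4.18 in 8W libraries 1, 2 and 3 and 1.82 to 2.65 at 1W, and 2 of these genes rose, but 11 without library 1 and 4 without library 2. Red blood cell genes showed 1 rise, or 4 without library 1, and Schwann cell genes 1 fall, or 4 without library 3.

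What resolved and what persisted was read from the difference to sham of the same stage. These comparisons share the MI libraries with the comparison of the stages, but the 1W and the 8W comparison share no library with each other. At 1W, 9365 genes were above sham (72.8%) and 2124 below (16.5%), and at 8W 9056 were above (70.4%) and 1358 below (10.6%). Genes above sham at both stages numbered 8331, which is 89.0% of the 1W list and 92.0% of the 8W list. The excess of genes above sham depended on the scaling. With median-ratio factors 5364 genes were above sham and 5090 below at 1W, and 4574 and 4767 at 8W, and after quantile normalisation these counts were 5203 and 5179 at 1W and 3783 and 5263 at 8W. With median-ratio factors 3888 genes were above sham at both stages, 72.5% and 85.0% of either list. Below sham at both stages were 1244 genes, 58.6% of the 1W list and 91.6% of the 8W list, and 759 of the 1W list were not called at 8W. Of the 9365 genes above sham at 1W, 5415 were above it at 8W but lower than at 1W, 2641 were above it with no call between the stages and 275 were above it and higher than at 1W. A further 725 genes were above sham at 8W only.

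**Figure D5:**
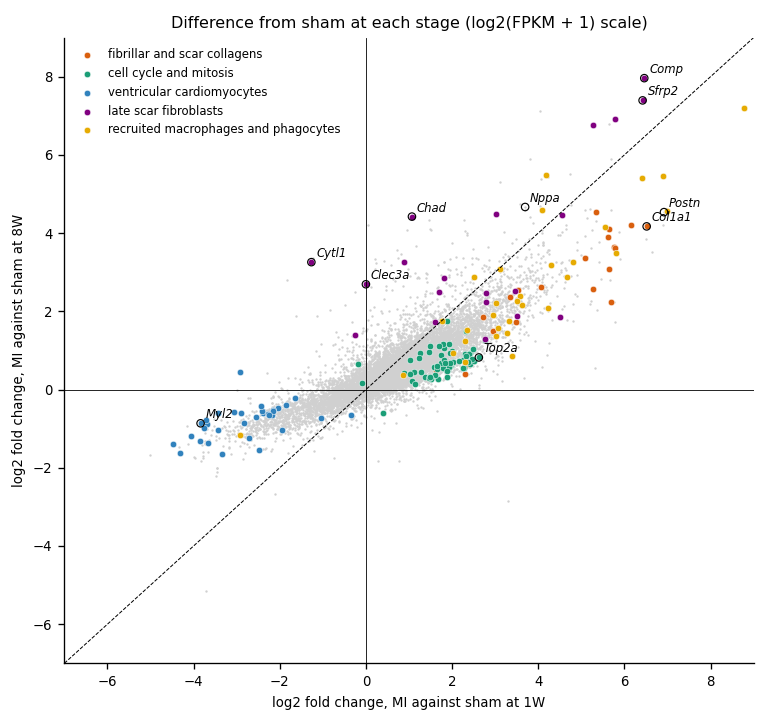
Log2 fold change of MI against sham at 1W (x axis) and at 8W (y axis) for all tested genes (grey) and 5 lists (colours), on the log2(FPKM + 1) scale, with the dashed line marking equal differences. Collagen and most cell cycle genes lie below the line and most cardiomyocyte genes between the line and 0, while Comp, Chad and Cytl1 lie above it.

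The share of the 1W excess that was left differed between gene groups. The median over the members above sham at 1W was 16.9% for cell cycle genes, 19.9% for collagens, 24.3% for activated fibroblast genes, 25.1% for endoplasmic reticulum genes and 33.6% for recruited macrophage genes, beside 53.4% for all such genes. It was 54.5% for MHC class II genes, 74.5% for complement genes, 94.2% for chemokines, 113% for late scar genes and 156% for small leucine-rich proteoglycans. These shares are descriptions without a test. Of the 21 collagens 20 stayed above sham at 8W, beside 89.0% of all genes above sham at 1W, and all 20 were lower than at 1W.

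The change in MI was also set against the change in sham, which carries age and time since the operation. It was higher in MI for 2205 genes (17.1%) and lower for 3850 (29.9%). It was lower in MI for 19 of 21 collagens, 58 of 66 cell cycle genes and 23 of 31 recruited macrophage genes, and higher for 30 of 33 cardiomyocyte and 76 of 77 oxidative phosphorylation genes. Postn and Eln changed in sham hearts as well, by -1.91 (limma adjusted p = 0.0025) and -2.22 (limma adjusted p = 0.0023) on the log2 scale, and by -4.30 and -4.64 in MI. So did Col3a1 and Cthrc1, by -1.60 (limma adjusted p = 0.037) and -1.99 (limma adjusted p = 0.034), and by -3.30 and -4.68 in MI.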

How the data were processed

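Left ventricles of MI and sham mice were sequenced for mRNA in 18 libraries, 3 of each group, and 6 of these, MI at 1W and 8W, make up the comparison described. The authors aligned the reads to mm10, and the deposited FPKM of each gene and library were made by Cufflinks 2.2.1, while the submitters' processing notes also list TopHat2 2.0.13 and Bowtie2 2.2.3, and the number of reads is not given in the sources used here, so that no counting error can be attached to an FPKM. The table holds 16415 genes, of which 32 have no symbol and are not named. The authors' normalized log2 columns of the same table were used as an alternative only, and their columns of fold changes and p-values between groups were not used. Small RNA tables were not used.

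A gene was tested where 3 or more of the 18 libraries reached 1 FPKM, which kept 12858 genes, and 2 genes were at 0 in every library. The log2(FPKM + 1) values were fitted with limma 3.58.1 in R 4.3.3, with a mean for each of the 6 groups, 12 residual degrees of freedom and an intensity trend, and p-values were adjusted by Benjamini-Hochberg over all genes tested, with calls below 0.05. The fit was tested on simulated data with known changes, and found 61.3%, 94.7% and 100% of changes of 0.5, 1 and 2 on the log2 scale, with 11 false calls. Each simulated gene had the same spread in all groups. The simulation therefore cannot show how the fit does with the wider spread of the 8W MI group. The 10 ratios were compared with exact two-sided permutation tests in scipy 1.17.1. Promoter windows and gene positions came from RefSeq for GRCm38.p6, in which 12833 of the 12858 genes were found by gene number and 10240 had a window. Alternatives were a pseudocount of 0.1, no filter, a mean of at least 5 FPKM, quantile normalisation, median-ratio factors, the authors' normalized values, a fit of the compared groups alone, no trend, a replicate block, each library left out and, chosen after seeing the data, group weights and median-ratio factors without library 3 of 8W MI.

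The genes and the 42 lists were chosen with earlier results of these data known. Genes were named by rule: the 12 largest rises and falls without overlap and with a mean of at least 5 FPKM, up to 4 called members of each list with the largest change, the genes of the ratios, the genes that the study names, and the 4 largest differences from the sham change in each direction. Tissue marks of single libraries, promoter examples and further list members fall outside it and were chosen after their values were seen: Myl7, Tnnc2, Mylpf, Upk3b, Adipoq, Cfd, Plin1, Pcolce2, Fbln1, Ltbp4, Tnxb, Smoc1, Mmp12, Mmp3, Acta2, Meox1, Clec3b, Cilp2, Sfrp2, Dcn, Fmod, Tcf21, Ccnd1, Cdk1, Cdc20, Ube2c, Kif11, Hspa5, Pdia6, Creld2, Canx, Dnajc3, Atp2a2, Cpt1a, Gpnmb, Spp1, Lpl, Prox1, Ccl19, Ccl8, C3, Tgfb3, Bmp4 and Arntl.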

Additional observations from a re-analysis of the deposited data

Results flagged for a closer look

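The change from 1W to 8W differed between MI and sham, by the interaction term of the limma fit, for 2205 genes with a higher change in MI and 3850 with a lower one. Among genes without overlap between libraries and with a mean of at least 5 FPKM, the 4 largest differences upward were those of Retnla (4.62 on the log2 scale, limma adjusted p = 0.00033), Cytl1 (4.52, limma adjusted p = 7.2e-06), Myoc (4.16, limma adjusted p = 7.2e-06) and Inmt (3.50, limma adjusted p = 0.00034). In sham the differences of these genes were -0.48, 0.13, 0.16 and -0.04, and none of them passed the test.

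The 4 largest differences downward were those of C1qtnf3 (-4.05, limma adjusted p = 5.8e-05), Tnc (-3.51, limma adjusted p = 0.00014), Adamts12 (-3.49, limma adjusted p = 9.0e-06) and Col11a1 (-3.46, limma adjusted p = 0.00023). Their sham differences were -0.66, -0.37, -0.37 and -0.27, and none of these passed the test either. At 8W the 3 MI libraries of each of these 8 genes lay entirely above or entirely below the 3 MI libraries of 1W. Groups of 3 libraries are too small for a test of single outlying libraries.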

How the results depend on the processing

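Genes that rose at 8W of MI numbered 2610, and 4033 after quantile normalisation, 3969 in the authors' own scaling, 4397 with median-ratio factors, 4560 with median-ratio factors without library 3 of 8W MI and 1696 with group weights. Genes that fell numbered 6299, and 3462 with a mean of at least 5 FPKM (of 7354 genes tested), 4014 with median-ratio factors and 3630 with only the MI libraries. Leaving out 1 library gave 2348 to 2880 rises and 5134 (without library 1 of 8W MI) to 7575 falls (without library 3 of 8W MI). For the difference from the sham change, higher counts were 3346 with median-ratio factors and 3864 when library 3 of 8W MI was also left out, the lower count was 2040 with a mean of at least 5 FPKM, and leaving out 1 library gave 1943 to 2529 and 2927 (without library 1 of 1W MI) to 6194 (without library 3 of 8W MI). In sham, rises went from 54 to 180, 244, 189, 248, 356 and 362 with quantile normalisation, median-ratio factors, the authors' values, only sham libraries, median-ratio factors without library 3 of 8W MI and group weights. Sham falls went from 55 to 94, 213, 100, 759, 362 and 1212 in the same order and to 113 with a pseudocount of 0.1, and 22 to 39 rises and 12 to 21 falls were left without 1 library.

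Genes above sham at both stages numbered 4469 with a mean of at least 5 FPKM, 3229 after quantile normalisation, 3888 with median-ratio factors, 3403 in the authors' values and 3512 with median-ratio factors without library 3 of 8W MI, and 7593 to 8925 without 1 library. Genes below sham at both stages numbered 4044, 4009, 3990 and 3720 in the same 4 scalings and 736 with group weights, and 1048 to 1348 without 1 library. Called list members stayed within 269 to 342 rises and 359 to 487 falls without 1 library.

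Without 1 library, the log2 change of Myh7 to Myh6 ran from -0.160 to 0.263, that of Acta1 to Actc1 from -0.0386 to 0.408, and that of Comp to Postn from 5.21 to 5.41. Gstm4 turned upward, at 0.0338, 0.0368 and 0.0326 in quantile, median-ratio and authors' scaling and 0.0482 with median-ratio factors without library 3 of 8W MI, where Rpl34 was at 0.0555. The causes were not tested. Deviations of same-numbered MI libraries from their group means correlated at -0.492, -0.107 and -0.544. With 3 libraries a group these deviations are tied to each other, so that they cannot show whether the numbers pair libraries. With a replicate block 2586 genes rose and 6277 fell. With 3 pooled libraries a group and an uneven 8W group, changes near the median shift of all genes depend on the scaling, and differences among low FPKM cannot be told from counting error, since the depth is unknown.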
